A study of Glycine max with 36 samples.

Results

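Of the 19200 soybean cDNA probes, 85 read atrazine-sprayed and bentazon-sprayed leaflets apart at 1, 2, 4 and 8 h, always on the same side. They were chosen from the 12 arrays on which atrazine RNA and bentazon RNA of 1 time met directly, 3 arrays a time. A probe was kept where all 12 values were present, the 4 time means had 1 sign, and each mean was at least 0.7 in size on the log ratio scale. Of 15606 probes with all 12 values, 3010 had 1 sign at all 4 times and 85 (0.545%) also passed the size threshold. At the single times, 9.55%, 11.4%, 12.1% and 9.37% of the probes reached 0.7 at 1, 2, 4 and 8 h. Since measured values chose the members, the herbicide differences are given as a description. The main tests were run only on the 24 arrays that the choice did not use. Of the 85 probes, 6 form 3 pairs with identical deposited values on every array, which leaves 82 distinct measurements.

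Plants of cultivar Williams 82, about 2 weeks old and grown in a greenhouse, received a mist spray of atrazine or bentazon at 22 to 25 mM or of water, and 3 leaflets were pooled per extract. The adjuvant (1% by volume) is recorded for the water spray alone, so adjuvant and herbicide effects cannot be told apart. Each of the 12 treatment and time groups met 2 others in a closed loop of 12 direct comparisons, with 3 arrays per comparison that the labels call biological repeats without saying that they came from separate sowings. In pooled leaflets, fewer cells of a type and less RNA per cell cannot be told apart. The p-values below measure the spread between these repeats. Atrazine met water directly at 2 and 4 h, and bentazon met water directly at 1 and 8 h.

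Atrazine and bentazon both stop photosynthetic electron transport at photosystem II, by occupying the plastoquinone site of the D1 protein. Soybean tolerates bentazon, which it hydroxylates and conjugates to sugar, and is injured by atrazine. Glutathione transferases, cytochromes P450, glycosyltransferases and ABC transporters are the protein families by which plants modify herbicides and move the products out of the cytosol. Only the ratio of 2 RNAs was measured, so no level of a gene or of a leaf marker can be given, and no build or sequence is paired with the probes in the sources used here.

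The numerator channel of the deposited ratio and its log base are not stated. The values were taken as log2, and the sign is that of the first-named minus the second-named RNA, in which PDR12, a pleiotropic drug resistance transporter of the ABC family, is positive under bentazon against water. That anchor was chosen after its values were seen. Whether positive means more or less RNA is not known, so values are described by their side and by their distance from water. PDR12 itself is no member: its mean was -5.84 at 2 h but -0.689 at 8 h, just under the threshold.

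The 85 probes fell into 2 sets, called here by a named gene of each. In the GSTL3 set (61 probes, 59 distinct) atrazine minus bentazon was negative, and in the XET1 set (24 probes, 23 distinct) it was positive. The annotation gives 1 gene symbol for 15 of the 85 probes (17.6%, 13 genes), against 1158 probes (6.03%) of the array. One further probe, Gm16872cDNA18kA, lists several genes, and 69 are unnamed here. By gene ID, 523 of the 527 genes on the array were matched to current symbols in the Glycine_max_v4.0 gene table. The GSTL3 set holds 10 named genes: GSTL3, GSTU30, GSTF5, OAS-TL3, SARK, AAT, LOC547734, LOC547523, LOC732582 and LOC547791. The XET1 set holds 5 named probes of 3 genes: XET1 and PR-10 with 2 probes each, and LOC778029.

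The sets differed in how the herbicide difference ran over time. In the GSTL3 set the 4 medians, in order of time, were -1.60, -2.87, -2.72 and -1.08. The difference was largest in size at 2 h in 29 probes and at 4 h in 28, at 8 h in none of the 61, and smallest at 8 h in 43. In the XET1 set the medians stayed between 1.17 and 1.39 at all 4 times, and 10 of 24 probes were largest at 8 h. All 12 single arrays lay on 1 side in 46 of 61 and in 21 of 24 probes, and no member had fewer than 10 arrays on its side. The medians of all probes were between -0.00718 and 0.0457 at these times.

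**Figure D1:**
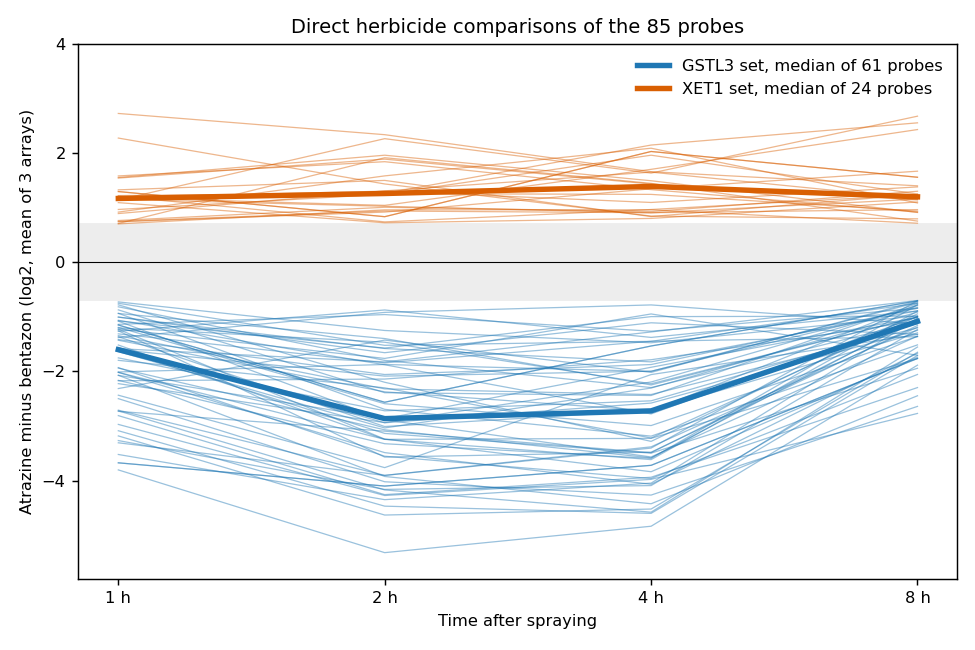
Atrazine minus bentazon (log2, mean of 3 arrays) of the 85 probes at 1, 2, 4 and 8 h after spraying. Thin lines are single probes, thick lines the median of each set, and the grey band marks sizes under 0.7; the GSTL3 set is widest apart at 2 and 4 h (medians -2.87 and -2.72) and the XET1 set is nearly level.

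The probes at the edge of the rule were close to one another. LOC547734 was the member nearest the threshold, with -0.70 at 8 h, followed by unnamed probes whose smallest mean was 0.703 and 0.706. Just outside lay 3 unnamed probes with smallest means of 0.698, 0.697 and 0.696. When the rule was applied to 2 of the 3 repeats, most probes so chosen kept their side in the third. Repeat 1 kept the side at all 4 times in 77 of 85 probes (90.6%), repeat 2 in 54 of 69 (78.3%) and repeat 3 in 72 of 115 (62.6%). The side was lost most often at 8 h in repeats 1 and 3 and at 1 h in repeat 2. Among all probes, 19.7%, 15.7% and 15.2% had 1 sign at the 4 times in these repeats. All 3 repeats entered the choice of the 85, so these counts describe the rule and are no test of the members.

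On arrays that played no part in the choice, the GSTL3 set lay far from water under bentazon and most of the XET1 set did not. At 1 h, limma called 55 of the 61 GSTL3 set probes positive and none negative (adjusted p threshold of 0.05 over 17138 probes), where 2.72% of all probes were called positive. All 61 estimates were positive, with a median of 2.03 against -0.04 over all probes. In the XET1 set, 4 of 24 were called positive and 1 negative (0.986% of all probes were called negative), and the median was -0.15. At 8 h, 40 of the 61 and 4 of the 24 were called positive and none negative, where 7.75% of all probes were called positive and 6.47% negative. The 8 h medians were 1.07 and 0.31, and without repeat 2 the 44 calls at 8 h came to 18. The bentazon extracts on these arrays are taken to be those that met atrazine on the arrays of the rule, which was not tested. The extract thus counts as shared and the hybridisation does not.

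Under atrazine, most of the XET1 set lay far from water and most of the GSTL3 set did not. At 2 h, 16 of the 24 XET1 set probes and 10 of the 61 GSTL3 set probes were called positive and none negative, where 2.77% of all probes were called positive and 2.61% negative. The medians were 1.51 and 0.21. Without repeat 1, 10 of the 85 were called in place of 26, where 0.222% of all probes were called. At 4 h, 20 of the 24 were called positive with a median of 2.49, and all 24 estimates were positive. In the GSTL3 set at 4 h, 14 of 61 were called positive and 4 negative around a median of 0.11, where 8.88% of all probes were called positive and 8.90% negative. These arrays are taken to share atrazine extracts with the rule in the same way. Water RNA was on no array of the rule, and each of the 4 direct comparisons used its own water extracts.

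**Figure D2:**
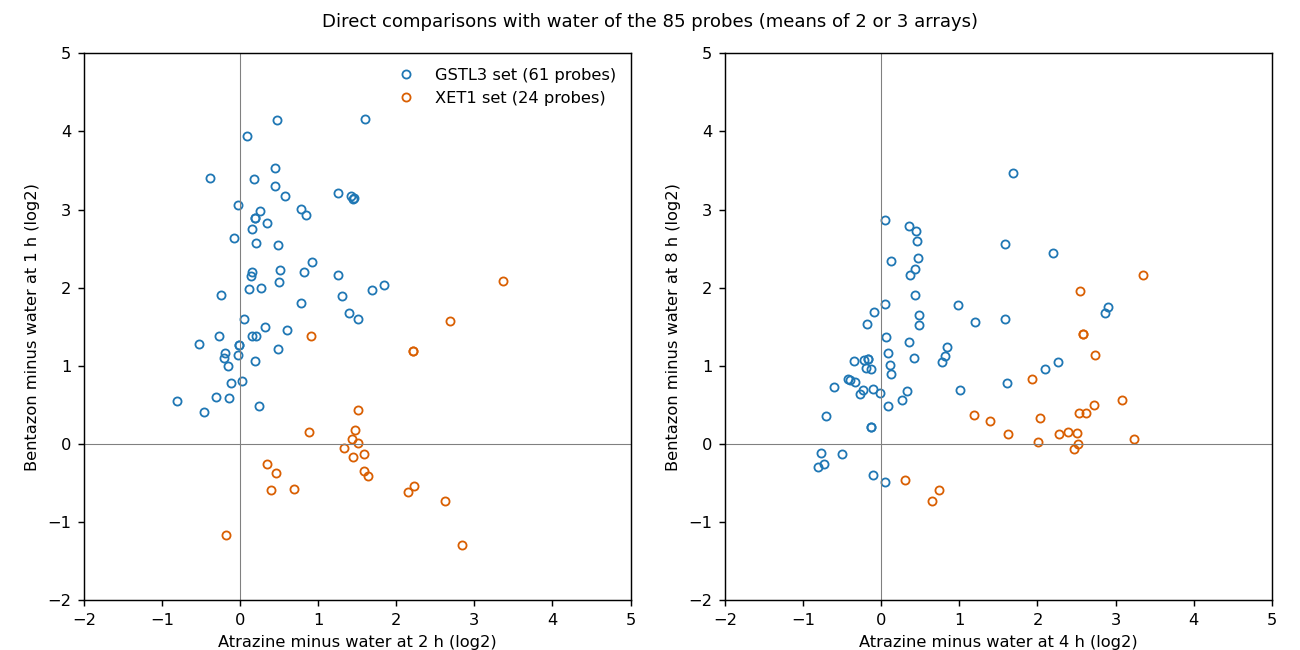
Direct comparisons with water of the 85 probes (log2, means of 2 or 3 arrays): atrazine at 2 h against bentazon at 1 h (left) and atrazine at 4 h against bentazon at 8 h (right), GSTL3 set in blue and XET1 set in orange. Most blue points lie high and near 0 on the atrazine axis and most orange points lie far right and near 0 on the bentazon axis.

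Over the 4 direct comparisons together, 40 of the 61 GSTL3 set probes (65.6%) were called under bentazon and not under atrazine, a pattern of 9.59% of all probes tested. In those 40 the medians were 2.08 and 1.08 under bentazon at 1 and 8 h and 0.17 and 0.05 under atrazine at 2 and 4 h. Another 15 of the 61 (24.6%) were called on the positive side under both herbicides, as were 6.86% of all probes, and SARK, LOC547734 and LOC547791 are among these. Their medians were 2.20 and 1.56 under bentazon and 1.39 and 1.59 under atrazine. Opposite sides were called for 2, AAT and LOC547523, as for 0.484% of all probes, and 2 others, LOC732582 among them, were called under neither, as were 70.5% of all probes. In the XET1 set, 16 of the 24 (66.7%) were called under atrazine and not under bentazon, a pattern of 12.6% of all probes, and these 16 hold all 5 named probes. A further 4 of the 24 were called positive under both. Since a call was made for one herbicide at other times than for the other, a pattern here joins different times and is no test that the herbicides differ. The rule chose members by their herbicide difference, which favours calls under 1 herbicide alone. The shares of all probes are therefore no like background for these patterns. Calls on 1 side at both 1 and 8 h under bentazon were made for 38 of 61 and 4 of 24 probes (0.904% of all), and at both 2 and 4 h under atrazine for 9 of 61 and 16 of 24 (3.26% of all).

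GSTL3, a lambda-class glutathione transferase, had the largest smallest-of-4 difference of the GSTL3 set. In repeats 1, 2 and 3, atrazine minus bentazon gave -3.09, -2.35 and -3.47 after 1 h and -4.72, -4.16 and -3.94 after 2 h. Those of the later arrays were -4.19, -3.28 and -4.47 (4 h) and -2.02, -3.93 and -2.37 (8 h), so all 12 lay on 1 side and the 8 h arrays were the most uneven. Bentazon minus water was 3.06, 2.67 and 3.19 at 1 h and 1.80, 4.35 and 2.21 at 8 h. Every bentazon array thus lay at least 1.80 from water. Atrazine minus water was 0.57, 0.47 and -0.26 at 2 h and -0.06, 0.64 and 0.50 at 4 h, which straddles 0. The bentazon means of 2.98 at 1 h (SE 0.315, n = 3, limma adjusted p = 9.15e-07) and 2.79 at 8 h (SE 0.315, n = 3, limma adjusted p = 9.65e-06) were called. The atrazine means of 0.26 and 0.36 were not (limma adjusted p = 0.72 and 0.479, n = 3 each).

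GSTU30 belongs to the tau class, the plant-specific class best known for herbicide conjugation. On the bentazon arrays the distance from water was 3.36, 2.68 and 3.49 at 1 h and 0.79, 2.56 and 0.77 at 8 h. Atrazine minus water was 0.68, 0.95 and 0.10 at 2 h and -0.39, 0.54 and 0.02 at 4 h. The 1 h bentazon arrays were all above every atrazine array, a gap that the rule favours through the shared extracts and that joins different times. At 8 h repeat 2 was apart from the other 2 repeats. The 1 h mean of 3.18 was called (SE 0.371, n = 3, limma adjusted p = 3.9e-06). The 8 h mean of 1.37 was called (limma adjusted p = 0.0166) but not without repeat 2 (0.78, limma adjusted p = 0.323) or without repeat 1 (1.66, limma adjusted p = 0.0587).

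GSTF5 belongs to the phi class, the other large plant class. Bentazon minus water was 1.36, 0.91 and 1.38 at 1 h and 0.70, 1.24 and 0.96 at 8 h, a narrower range than in the 2 former genes. Atrazine minus water lay between -0.44 and 0.88 over its 6 arrays and was not called at either time. The bentazon means were 1.22 (SE 0.194, n = 3, limma adjusted p = 2.78e-04) and 0.97 (limma adjusted p = 0.0023). Without repeat 1 the first was 1.15 (limma adjusted p = 0.0554), and without repeat 2 the second was 0.83 (limma adjusted p = 0.0803).

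The list of glutathione transferases, 30 probes of 18 genes, was the only one of 7 gene lists besides cell wall genes that held members. At 1 h under bentazon, 4 of its 29 tested probes were called positive and none negative, with a list median of 0.16, and the 3 members are among the 4 (2.72% of all probes were called positive). At 8 h, 5 were called positive, the 3 members among them, and 2 negative, where 7.75% and 6.47% of all probes were. Under atrazine, none was called positive and 2 negative at 2 h, where 2.77% and 2.61% of all probes were, and 2 positive and 3 negative at 4 h, where 8.88% and 8.90% were. The list's median herbicide difference was between -0.15 and 0.02 at the 4 times. The rule chose the 3 members by their size on this measure, so their distance from this median was set in advance.

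The other lists gave no member. Those are the transporter list, which is PDR12 alone, and the lists of cytochromes P450 (21 probes, 6 genes), glycosyltransferases (8 probes, 3 genes), glutathione and redox enzymes (25 probes, 12 genes) and leaf photosynthesis (10 probes, 3 genes). At 1 h under bentazon, 0 of 19 P450 probes, 1 of 7 glycosyltransferase probes, 0 of 22 redox probes and 0 of 10 photosynthesis probes were called positive and none negative, where 2.72% and 0.986% of all probes were. At 8 h under bentazon, these 4 lists had 1, 0, 3 and 0 probes called positive and 3, 2, 7 and 0 called negative, against 7.75% and 6.47% of all probes. Under atrazine at 4 h, the same 4 lists had 2, 4, 3 and 1 called positive and 3, 0, 7 and 1 called negative, against 8.88% and 8.90% of all probes. At 2 h they had 2, 1, 1 and 0 called positive and 0, 0, 4 and 0 negative, against 2.77% and 2.61%. PDR12 was called positive at 1 h under bentazon, with a mean of 3.98 (SE 0.42, n = 3, limma adjusted p = 9e-07), and at 8 h its mean was 1.19 (limma adjusted p = 0.0574).

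OAS-TL3 encodes an O-acetylserine (thiol)lyase, the enzyme that makes cysteine, a building block of glutathione. Its course differed from that of the glutathione transferases in that the 1 h arrays were split. Against water, the bentazon arrays gave 0.35, 1.65 and -0.36 at 1 h and 0.78, 1.44 and 1.01 at 8 h. Atrazine minus water was -0.64, -0.94 and -0.85 at 2 h and -0.21, -0.28 and -0.17 at 4 h, so all 6 atrazine arrays were negative. Only the 8 h bentazon mean of 1.07 was called (SE 0.263, n = 3, limma adjusted p = 0.00906). That call was lost without repeat 1 (1.22, limma adjusted p = 0.0825) and without repeat 2 (0.89, limma adjusted p = 0.0794). The atrazine mean of -0.81 at 2 h was not called (limma adjusted p = 0.0731). It was called with scaled arrays (-0.87, limma adjusted p = 0.0471), array weights (-0.85, limma adjusted p = 0.00796) and its own 3 arrays alone (-0.81, limma adjusted p = 0.0407). Bentazon at 4 h minus 2 h was 0.61, 1.43 and 0.71 (mean 0.92, limma adjusted p = 0.0351), a call lost without each repeat in turn (0.66 to 1.07, limma adjusted p = 0.0519 to 0.224).

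SARK is a senescence-associated receptor-like kinase. Bentazon minus water was 3.87, 1.90 and 3.62 at 1 h and 1.15, 3.15 and 0.52 at 8 h. Atrazine minus water was 2.58, 1.04 and 0.71 at 2 h and 1.13, 1.47 and 2.17 at 4 h. Every one of these 12 arrays was positive, so SARK lay on the same side of water under both herbicides. Its mean was farthest from water under bentazon at 1 h, but the lowest of those arrays (1.90) lay under the highest atrazine array (2.58 at 2 h). The rule favours a greater distance under bentazon, and the comparison joins different times. The means of 3.13 at 1 h (SE 0.44, n = 3, limma adjusted p = 5.5e-05) under bentazon and 1.59 at 4 h under atrazine (limma adjusted p = 0.0132) were called, the latter not without repeat 1 (1.82, limma adjusted p = 0.0708). The bentazon mean of 1.60 at 8 h (limma adjusted p = 0.0181) was not called without repeat 2 (0.83, limma adjusted p = 0.321) or repeat 1 (1.83, limma adjusted p = 0.0825), nor on its own 3 arrays (1.60, limma adjusted p = 0.0505). The atrazine mean of 1.44 at 2 h missed the threshold (limma adjusted p = 0.0546) and was called in 6 of the 12 alternatives, with limma adjusted p between 0.00656 and 0.0385.

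LOC547791 and LOC547734, like SARK, lay on the positive side of water under both herbicides. For LOC547791, bentazon minus water was 2.06, 2.43 and 2.01 at 1 h (mean 2.17, SE 0.301, limma adjusted p = 4.75e-05) and 0.12, 2.12 and 0.10 at 8 h (mean 0.78, limma adjusted p = 0.0863). Its atrazine arrays lay between 0.92 and 1.68 at 2 h (mean 1.25, limma adjusted p = 0.014, and 0.281 without repeat 1) and between 0.97 and 2.49 at 4 h (mean 1.61, limma adjusted p = 5.06e-04). All atrazine arrays and all 1 h bentazon arrays were positive. The 8 h mean was called without repeat 3 (1.12, limma adjusted p = 0.0346). In the 36-array model it was 0.95, but that model holds the arrays of the rule and is no test of a member. For LOC547734, the 1 h bentazon arrays lay between 1.64 and 2.10 (mean 1.89, SE 0.352, limma adjusted p = 0.00157) and the 8 h arrays between 0.44 and 3.14 (mean 1.56, limma adjusted p = 0.0053, 0.173 without repeat 2, where the mean was 0.77, and 0.0578 on its own 3 arrays). Its atrazine means were 1.31 at 2 h (limma adjusted p = 0.0278) and 1.21 at 4 h (limma adjusted p = 0.0181). Both were lost without repeat 1 (1.11 and 1.49, limma adjusted p = 0.282 and 0.0566) and without repeat 3 (1.504 and 0.91, limma adjusted p = 0.0689 and 0.169). These 2 genes also moved in water: 8 h minus 4 h was 1.56 for LOC547791 (limma adjusted p = 0.00162, and 0.0937 without repeat 1) and 2.15 for LOC547734 (limma adjusted p = 3.26e-04).

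AAT and LOC547523 were the 2 members called on opposite sides of water under the herbicides, at 1 h under bentazon and at 4 h under atrazine. For AAT, bentazon minus water was 0.92, 0.35 and 1.08 at 1 h (mean 0.78, SE 0.194, limma adjusted p = 0.0195) and atrazine minus water was -0.97, -0.39 and -0.75 at 4 h (mean -0.70, limma adjusted p = 0.0127). Both calls of AAT were lost without repeat 1 (0.71 and -0.57, limma adjusted p = 0.314 and 0.196) and without repeat 3 (0.64 and -0.68, limma adjusted p = 0.342 and 0.0872). The bentazon call was also lost on its own 3 arrays (0.78, limma adjusted p = 0.0632). For LOC547523, bentazon minus water was 0.87, 1.64 and 1.65 at 1 h (mean 1.38, SE 0.214, limma adjusted p = 1.87e-04) and -0.23, -0.33 and 0.23 at 8 h (mean -0.11, limma adjusted p = 0.774). Its 1 h and 8 h arrays did not overlap. Atrazine minus water was -0.60, -0.79 and -0.93 at 4 h (mean -0.77, limma adjusted p = 0.0134), lost without each repeat in turn (-0.86 to -0.69, limma adjusted p = 0.0587 to 0.0977).

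LOC732582 was called in none of the 4 direct comparisons in the fit over 24 arrays. Under bentazon the arrays gave 0.72, 0.89 and 0.82 at 1 h (mean 0.81, limma adjusted p = 0.0945) and -0.14, 1.93 and 0.39 at 8 h (mean 0.73, limma adjusted p = 0.0619). The 1 h mean was called in 4 of the 12 alternatives, with limma adjusted p between 0.00676 and 0.0293. The 8 h mean was called with a replicate block (limma adjusted p = 0.0451), and the 4 h atrazine mean with array weights (-0.53, limma adjusted p = 0.047). In water, its 8 h minus 4 h mean was 1.11 (limma adjusted p = 0.00765, and 0.0588 and 0.0581 without repeats 1 and 2).

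Most of the GSTL3 set is unnamed, and its 3 unnamed probes farthest from the threshold had values near those of GSTL3. These probes were picked by the size of the herbicide difference, which favours such values. Gm14271cDNA18kA had 3.52, 2.85 and 3.79 under bentazon at 1 h and 1.78, 3.01 and 1.94 at 8 h. Gm09344cDNA18kA had 2.82, 2.74 and 2.93 and then 1.26, 4.05 and 2.51. Gm06308cDNA18kA had 2.23, 1.46 and 2.30 and then 1.44, 3.71 and 3.00. All 3 were called at both times, with limma adjusted p between 3.14e-09 and 9.98e-05, and the atrazine means of the 3, at most 0.453, were not called. Gm16872cDNA18kA, which lists several genes, was called in all 4 comparisons (3.17 and 2.56 under bentazon, 1.42 and 1.59 under atrazine), with the 2 h atrazine call lost without repeat 1 (1.14, limma adjusted p = 0.271).

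**Figure D3:**
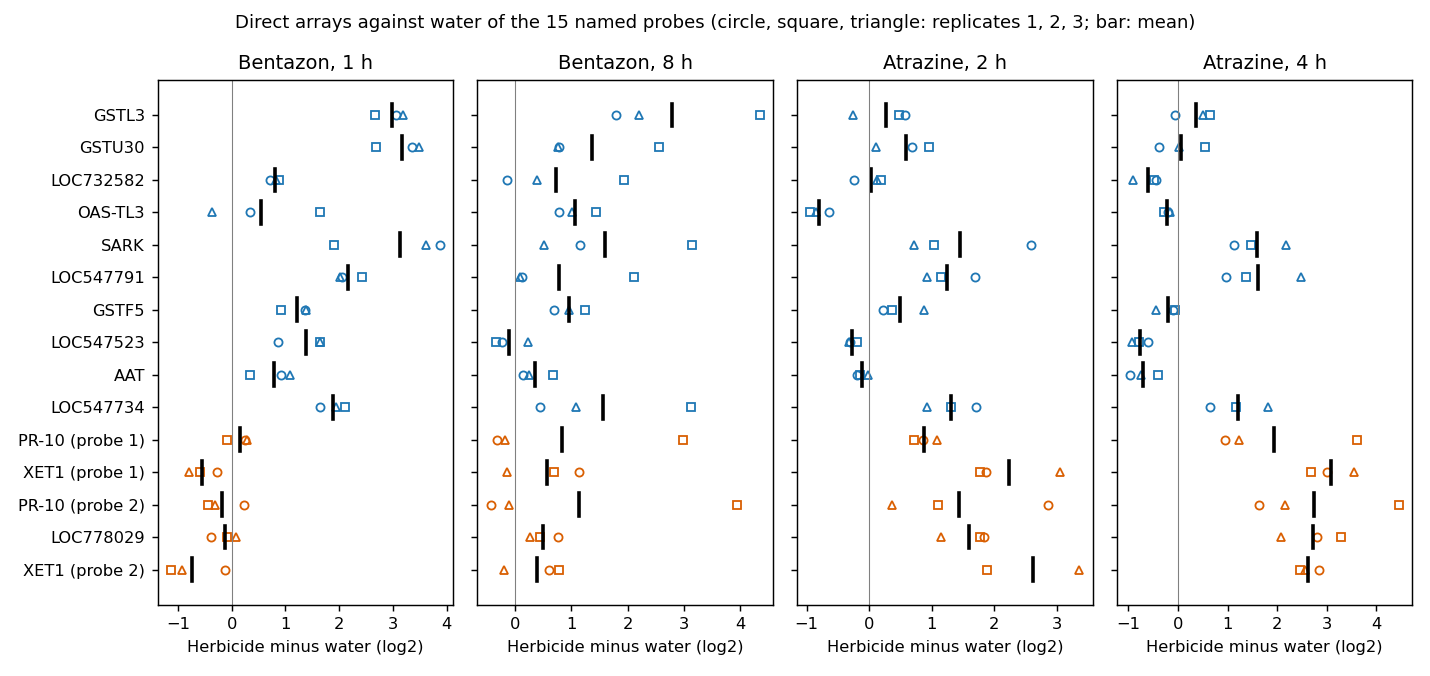
Herbicide minus water (log2) of the 15 named probes on each direct array, with circles, squares and triangles for repeats 1, 2 and 3, a bar for the mean, blue for the GSTL3 set and orange for the XET1 set. GSTL3 and GSTU30 sit near 3 at 1 h under bentazon, and XET1 lies between 1.78 and 3.56 on the atrazine arrays while its bentazon arrays lie between -1.13 and 1.13.

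XET1, a xyloglucan endotransglycosylase that cuts and rejoins the hemicellulose of the cell wall, was measured by 2 member probes. On the first (Gm01766cDNA18kA), atrazine minus water was 1.87, 1.78 and 3.04 at 2 h and 3.00, 2.68 and 3.56 at 4 h. Bentazon minus water was -0.27, -0.58 and -0.79 at 1 h and 1.13, 0.69 and -0.14 at 8 h. No bentazon array reached the lowest atrazine array, a gap that the rule favours through the shared extracts and that joins different times. The atrazine means of 2.23 (SE 0.301, n = 3, limma adjusted p = 1.09e-04) and 3.08 (SE 0.301, n = 3, limma adjusted p = 1.39e-07) were called, and the bentazon means of -0.54 and 0.56 were not (limma adjusted p = 0.445 and 0.225). Without repeat 3, the 8 h bentazon mean was 0.91 (limma adjusted p = 0.0255). The second probe (Gm02248cDNA18kA) gave 2.62 at 2 h from 2 arrays (limma adjusted p = 2.85e-04) and 2.62 at 4 h (limma adjusted p = 2.18e-06) under atrazine, and -0.73 and 0.40 under bentazon (limma adjusted p = 0.265 and 0.427). This probe also moved within bentazon from 2 to 4 h, by 0.87, 1.42 and 1.01 (mean 1.10, limma adjusted p = 0.0342). That call was lost without repeat 1 (1.22, limma adjusted p = 0.193) and without repeat 2 (0.94, limma adjusted p = 0.144). It was lost as well in the 36-array model (0.92), which holds the arrays of the rule. The cell wall list held 14 probes of 5 genes, XET1 included. Of its 14, 4 were called positive under atrazine at 2 h and 3 at 4 h and none negative, where 2.77% and 8.88% of all probes were called positive, and 2 of these at each time are the XET1 members that the rule chose. Under bentazon none was called positive, 1 negative at 1 h and 2 negative at 8 h, where 0.986% and 6.47% of all probes were called negative.

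PR-10, a small intracellular pathogenesis-related protein, was also measured by 2 member probes, with a wide spread between repeats. On the first (Gm01559cDNA18kA), atrazine minus water was 0.86, 0.71 and 1.07 at 2 h and 0.96, 3.62 and 1.22 at 4 h. Bentazon arrays against water read 0.24, -0.08 and 0.29 at 1 h and -0.31, 2.98 and -0.18 at 8 h. The second (Gm04767cDNA18kA) gave 2.85, 1.10 and 0.37 at 2 h, 1.62, 4.45 and 2.15 at 4 h under atrazine, and -0.43, 3.95 and -0.10 at 8 h under bentazon. On both probes repeat 2 was the high one at 4 h under atrazine and at 8 h under bentazon. The 4 h atrazine means of 1.93 (SE 0.565, n = 3, limma adjusted p = 0.0192) and 2.74 (SE 0.593, n = 3, limma adjusted p = 0.00212) were called, and of these the first was lost without repeat 2 (1.09, limma adjusted p = 0.264) and with a robust prior (1.93, limma adjusted p = 0.0596). Neither probe was called under atrazine at 2 h (limma adjusted p = 0.425 and 0.172) or under bentazon. On its own 3 arrays the first probe was called at 2 h (0.88, limma adjusted p = 0.0306), and with array weights the second was (1.44, limma adjusted p = 0.0447). From 1 to 8 h under atrazine the first probe moved by 1.80 and 5.96 on its 2 arrays (mean 3.88, limma adjusted p = 1.46e-04, and 0.122 without repeat 3) and the second by 2.61, 4.06 and 3.27 (mean 3.31, limma adjusted p = 1.36e-04).

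LOC778029 was called at both atrazine times and at neither bentazon time. Atrazine minus water was 1.84, 1.77 and 1.15 at 2 h (mean 1.59, SE 0.323, limma adjusted p = 0.00392) and 2.81, 3.28 and 2.07 at 4 h (mean 2.72, limma adjusted p = 1.81e-06). Bentazon minus water lay between -0.38 and 0.08 at 1 h and between 0.26 and 0.77 at 8 h, below every atrazine array. The rule favours this gap too, and it joins different times. The 2 h call was lost without repeat 1 (1.46, limma adjusted p = 0.194). From 1 to 8 h under atrazine it moved by 2.27, 3.18 and 0.61 (mean 2.02, limma adjusted p = 3.67e-05).

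The unnamed probes of the XET1 set farthest from the threshold were called under atrazine, which their choice by the size of the herbicide difference favours. Gm12877cDNA18kA had 2.75, 2.52 and 3.27 at 2 h and 4.16, 3.26 and 2.28 at 4 h under atrazine (limma adjusted p = 0.00473 and 4.02e-04, both lost without repeat 1 at 0.132 and 0.0599). Its bentazon arrays at 1 h were all negative, at -1.68, -1.68 and -0.51, with a mean of -1.29 that was not called (limma adjusted p = 0.318), but was with array weights (limma adjusted p = 0.0468) and on its own 3 arrays (limma adjusted p = 0.0202). In water its 8 h minus 4 h mean was 2.82 (limma adjusted p = 0.00341, and 0.199 without repeat 1). Gm00375cDNA18kA had atrazine means of 2.16 and 2.00 (limma adjusted p = 2.07e-04 and 4.85e-05) and bentazon means of -0.62 and 0.03, which were not called. Gm14218cDNA18kA had atrazine means of 1.33 and 2.39 (limma adjusted p = 0.00917 and 3.58e-06), of which the first was lost without repeat 1 (1.54, limma adjusted p = 0.0923) and repeat 3 (1.27, limma adjusted p = 0.0522).

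The course against water at all 4 times came from 1 linear model over the 36 arrays and is a description, since atrazine at 1 and 8 h and bentazon at 2 and 4 h reach water only through the arrays of the rule. In the GSTL3 set the bentazon medians were 2.03, 3.34, 3.36 and 1.00 at 1, 2, 4 and 8 h, and the atrazine medians stayed between -0.04 and 0.21. Bentazon was the farther herbicide from water in 59, 61, 60 and 47 of the 61 probes. In the XET1 set the atrazine medians were 1.06, 1.55, 2.48 and 1.30 and the bentazon medians -0.20, 0.07, 0.74 and 0.31, with atrazine the farther in 22, 20, 23 and 22 of the 24. The herbicides lay on opposite sides of water in 20, 19, 22 and 26 of the 61 and in 13, 11, 5 and 4 of the 24, small values included. GSTL3 under bentazon ran 3.04, 4.41, 4.46 and 2.73 (SE 0.326 to 0.439), and SARK 3.01, 4.38, 4.53 and 1.73 (SE 0.454 to 0.612). GSTU30 was the named glutathione transferase with a 1 h atrazine value off 0, at 1.80 (SE 0.531), and its later atrazine values were 0.65, -0.02 and -0.22. For LOC547523 the bentazon values went from 1.31 at 1 h to -0.13 at 4 h (SE 0.22 and 0.297), and its atrazine values from -0.14 at 1 h to -1.10 at 8 h (SE 0.297 each).

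**Figure D4:**
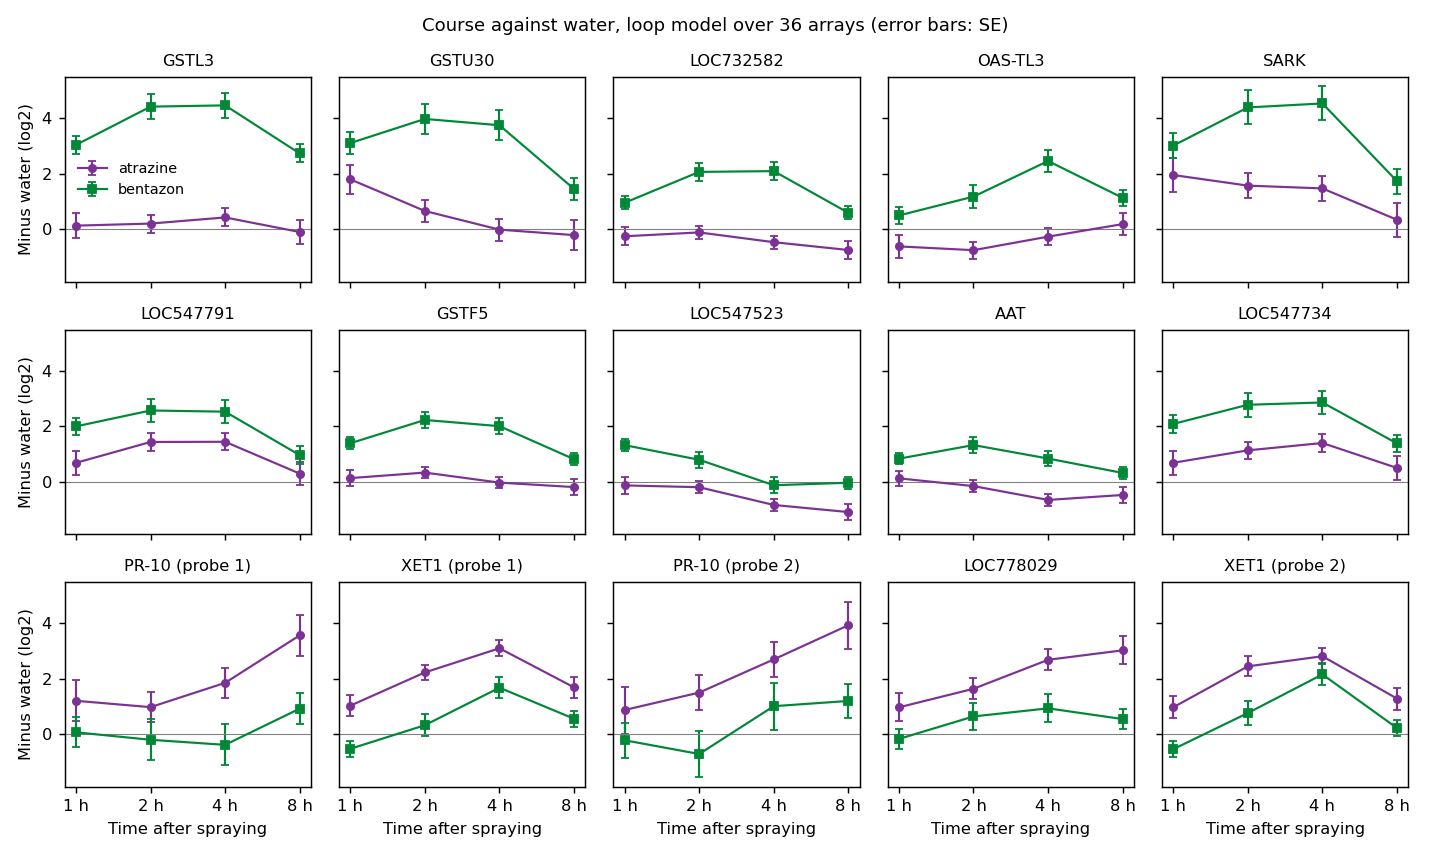
Atrazine (purple circles) and bentazon (green squares) minus water (log2) at 1, 2, 4 and 8 h for the 15 named probes, from the linear model over 36 arrays, with standard errors as bars. GSTL3 under bentazon peaks at 4.46 while its atrazine line stays near 0, and PR-10 and LOC778029 are farthest from water at 8 h under atrazine.

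Among the XET1 set, the named genes differed in time. XET1 under atrazine was farthest from water at 4 h, at 3.09 and 2.80 on its 2 probes (SE 0.287 and 0.296), and came back to 1.68 and 1.28 at 8 h. PR-10 was farthest at 8 h, at 3.56 and 3.92 (SE 0.739 and 0.846), as was LOC778029 at 3.02 (SE 0.502). Under bentazon XET1 was also off water at 4 h, by 1.67 and 2.15 (SE 0.387 and 0.40), while its direct values at 1 and 8 h were not called.

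Changes over time were tested on the arrays outside the rule. Within water, none of the 85 members was called between 1 and 2 h by limma, where 0% of all 17138 probes were called. At an unadjusted p under 0.05 there were 2 of the 85 and 686 of all probes, and fitted on its own 3 arrays the comparison also gave 0 called. Repeats 2 and 3 of that comparison were negatively correlated over all probes (r = -0.29). Between 4 and 8 h in water, 7 of the 61 and 5 of the 24 were called, where 8.03% of all probes were. The 12 came to 3 without repeat 1, where 1.82% of all probes were called, and to 7 without repeat 2, where 2.92% were.

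Within atrazine, 8 h minus 1 h called 2 of the 61 GSTL3 set probes positive and 21 negative, and 11 of the 24 XET1 set probes positive and 1 negative, where 15.6% of all probes were called positive and 15% negative. The medians were -0.38 and 0.67 against 0.03 over all probes. AAT moved by -0.85 (limma adjusted p = 0.00151), a call lost without repeat 1 (-0.60, limma adjusted p = 0.10) and on its own 3 arrays (-0.85, limma adjusted p = 0.07). LOC547791 moved by 2.21 (limma adjusted p = 4.84e-06) and LOC547734 by 2.31 (limma adjusted p = 2.05e-05), and both also moved in water. LOC547523 moved by -0.65 (limma adjusted p = 0.023), a call lost without each repeat (-0.82 to -0.51, limma adjusted p = 0.0599 to 0.163), with scaled arrays (0.139), with array weights (0.0508) and on its own 3 arrays (0.117). The GSTU30 mean of -0.66 was not called (limma adjusted p = 0.191) but was without repeat 3 (-1.35, limma adjusted p = 0.00977) and with array weights (-0.94, limma adjusted p = 0.0481). The 35 members called came to 19 without repeat 1, a count given without its share of all probes and no result about the members.

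Within bentazon, 4 h minus 2 h called 9 of the 61 and 2 of the 24 positive and none negative, where 3.90% of all probes were called positive and 3.10% negative. These calls did not hold without single repeats: 0 were called without repeat 1, and without repeat 2 the calls were 0 positive and 3 negative. Without repeat 3, 7 were called positive. The counts with a repeat left out are given without their shares of all probes and are no result about the members. In the GSTL3 set, repeat 3 was the lowest of the 3 arrays in 57 of 60 probes (set medians of 0.34, 0.68 and -0.49 in repeats 1, 2 and 3).

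The bentazon effect at 8 h was compared with that at 1 h as a contrast of the 2 water comparisons. Bentazon RNA was second-named (Cy5) at 8 h and first-named (Cy3) at 1 h. This fit has no dye term, so a dye bias of a probe would not cancel in the contrast. The change of the atrazine effect has the same limit. Of the 61 GSTL3 set probes, 15 were called negative and none positive, so nearer to water or beyond it at 8 h, where 1.58% of all probes were called negative and 2.04% positive. The set median of the contrast was -1.03 against 0.05 over all probes, and 52 of the 61 estimates were negative. No XET1 set probe was called, with 4 of the 24 under an unadjusted p of 0.05. LOC547523 was the only named gene called in this fit, at -1.50 (SE 0.303, limma adjusted p = 0.00869), and not without repeat 1 (-1.69, limma adjusted p = 0.252) or repeat 2 (-1.26, limma adjusted p = 0.0801). GSTU30 followed at -1.80 (limma adjusted p = 0.0539) and was called in 4 of 11 alternatives: without repeat 2 (-2.64, limma adjusted p = 0.0431), with a replicate block (0.0266), with scaled arrays (0.00321) and with array weights (0.000587). SARK was called without repeat 2 (-2.92, limma adjusted p = 0.0365), with scaled arrays (0.0381) and with array weights (0.00283). LOC547791 was called under the same 3 (-1.93 without repeat 2, limma adjusted p = 0.0367, then 0.0134 and 0.00134). The unnamed probe Gm14271cDNA18kA, at -1.14 (limma adjusted p = 0.0517), was called in 7 of 11. For GSTL3 the contrast was -0.19 (SE 0.446, limma adjusted p = 0.854). The 15 came to 0 without repeat 1, where limma called 0% of all probes, to 20 without repeat 2 and to 10 without repeat 3. The last 2 counts are given without their shares of all probes and are no result about the members. The atrazine effect at 4 h minus that at 2 h was called by limma in none of the 85, where 0.286% of all probes were called. An unadjusted p under 0.05 was found in 15 of the 85 and in 2459 of all 17138 probes. The XET1 set median was 0.65.

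Repeat 2 of the arrays with 8 h bentazon RNA stood apart among the GSTL3 set. Its bentazon minus water array was the highest of the 3 in 54 of 61 probes, with a set median of 2.11 against 0.53 and 0.81 in repeats 1 and 3. Its direct herbicide array at 8 h was the lowest in 58 of 61, with a median of -2.02 against -0.84 and -0.55. Both arrays carry 8 h bentazon RNA under the same repeat number, and whether it was 1 extract was not tested. Without repeat 2 the members called under bentazon at 8 h were 18 in place of 44, where 2.15% of all probes were called. The rule applied without repeat 2 gave 33 probes on the side of the GSTL3 set and 36 on that of the XET1 set, 51 of them members. At 1 h under bentazon repeat 2 was the lowest in 49 of 61 probes, with a median of 1.65 against 2.25 and 2.29.

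**Figure D5:**
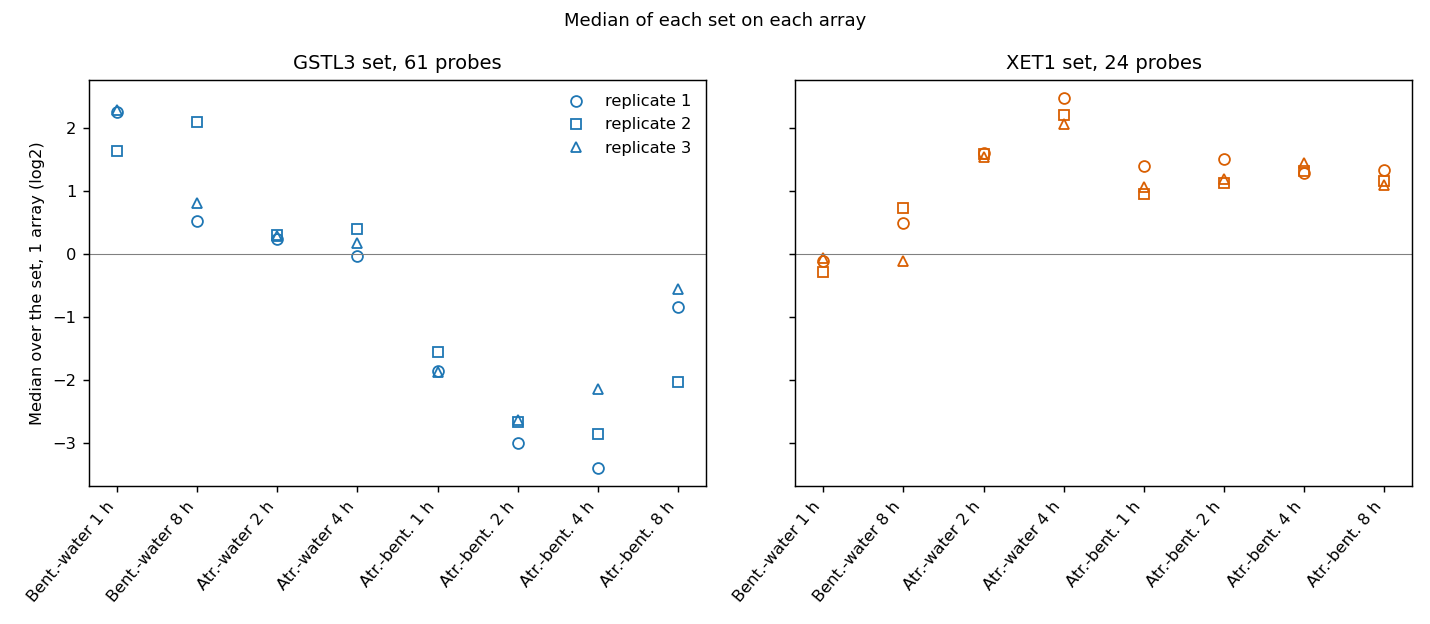
Median over each set (log2) on each single array of the 4 direct comparisons with water and the 4 direct herbicide comparisons, with circles, squares and triangles for repeats 1, 2 and 3. In the GSTL3 set repeat 2 at 8 h lies at 2.11 against water and -2.02 against atrazine, away from the other 2 repeats, while the XET1 set medians lie close together in most comparisons.

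The array carries 23 further probes for the named genes, none of them a member, and they divide the genes. The second AAT probe gave 0.83 at 1 h under bentazon (limma adjusted p = 0.0177) and herbicide differences of -0.69, -1.19, -1.28 and -0.53, on the member's side at all 4 times. At 4 h under atrazine, where the member was called, it gave -0.27 and was not called (limma adjusted p = 0.411). The second LOC547523 probe gave -1.47, -0.83, -0.63 and -0.78 and was called at 1 h under bentazon (0.93, limma adjusted p = 0.0421) and at 4 h under atrazine (-0.77, limma adjusted p = 0.0409), as the member was. For LOC547734, 2 of 5 further probes were negative at all 4 times and called at 1 h under bentazon (1.74 and 1.13, limma adjusted p = 0.00799 and 0.0012), and for GSTF5, 1 of 2 was negative at all 4 times (-1.08, -1.65, -1.45 and -0.45). Under bentazon at 1 and 8 h that GSTF5 probe gave 0.41 and 0.07, not called (limma adjusted p = 0.373 and 0.867). The other GSTF5 probe gave -0.12 and -0.28, not called (limma adjusted p = 0.904 and 0.503), with herbicide differences between -1.03 and 0.80. For other genes the further probes did not follow the member. The second GSTL3 probe had herbicide differences between -0.38 and 0.52 and 0.48 at 1 h under bentazon (limma adjusted p = 0.371). At 8 h under bentazon it gave -0.59, on the other side from the member and not called (limma adjusted p = 0.103). At 4 h under atrazine it gave -0.62, not called (limma adjusted p = 0.0749). The 2 further GSTU30 probes lay between -0.67 and 0.65, and those of SARK and OAS-TL3 between -0.54 and 0.84 and between -0.50 and 0.49. One of the 2 further SARK probes was called negative at 4 h under atrazine (-1.23, limma adjusted p = 0.0135) and at 8 h under bentazon (-1.08, limma adjusted p = 0.0361), where the member was positive on every array. Both further OAS-TL3 probes were called negative at 4 h under atrazine (-0.81 and -0.70, limma adjusted p = 0.0245 and 0.029), the side on which the member's 3 arrays lay. The further LOC547791 probe was called on the opposite side at 4 h under atrazine (-1.39, limma adjusted p = 4.62e-05) and at 8 h under bentazon (-1.06, limma adjusted p = 0.00222). At 1 h under bentazon, 2 further LOC732582 probes were called negative (-0.84 and -0.85, limma adjusted p = 0.029 and 0.0268), and all 3 tested were called negative at 4 h under atrazine (-0.95 to -0.90, limma adjusted p = 0.00391 to 0.00638). The further LOC778029 probe that was tested gave -0.06 and -0.44 under atrazine at 2 and 4 h (limma adjusted p = 0.903 and 0.0822), away from the member's 1.59 and 2.72. Which probe of such a gene reads its transcript was not tested, so the names GSTL3, GSTU30, SARK, OAS-TL3, LOC732582, LOC547791 and LOC778029 rest on 1 probe each. The bentazon calls of GSTF5 and the 4 h atrazine call of AAT also rest on 1 probe each.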

How the data were processed

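Per the labels' protocols, RNA was extracted with Trizol, labelled indirectly through aminoallyl-dUTP and hybridised as Cy3 (first-named RNA) and Cy5 (second-named RNA). The authors deposited log ratios, 1 for each probe on each array, which were read as log2. Their base and numerator, the background correction and the normalization have no source here; with another base, sizes scale by a constant and no test changes. No intensities were used, so the number of arrays limits the precision. The design text mentions dye-swapped technical repeats, yet every comparison is present in 1 orientation. Arrays held 16648 to 18484 values with medians between -0.047 and 0.0464.

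Limma 3.58.1 in R 4.3.3 fitted 1 mean for each of 8 comparisons over the 24 arrays outside the rule (17138 probes with a value on at least 2 of 3 arrays of each comparison; 16 residual and 8.19 prior degrees of freedom), with Benjamini-Hochberg adjustment over all probes and a threshold of 0.05. The fit has no dye term. A second model over 36 arrays, with 11 RNA differences and a dye term, gave the course against water. The fits were tested on simulated data. In the file, 1654 probes share all values with another probe.

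All members with 1 gene symbol are named, and of the unnamed, the 3 of each set whose smallest mean is largest, every other probe of a named gene and the 3 probes on each side of the threshold. PDR12, which set the sign, and Gm16872cDNA18kA were named after their values were seen. Members and the 7 gene lists were chosen with earlier results of these data known. Alternatives were the 36-array model, a replicate block, scaled arrays, median-centred arrays, array weights, a robust prior, complete probes and each repeat left out. The 36-array model holds the arrays of the rule, so its calls of members are no test apart from the choice. Identical probes entered once and each comparison on its own 3 arrays were added after seeing the data.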

Additional observations from a re-analysis of the deposited data

Results flagged for a closer look

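The bentazon effect of LOC547523 differed between 8 h and 1 h by -1.497 on the log2 scale (SE 0.303, limma adjusted p = 0.00869). The dyes of bentazon and water were exchanged between these times, and the fit has no dye term. No other named gene was called for this contrast in the fit over 24 arrays, while GSTU30 was in 4 of 11 alternatives and SARK and LOC547791 in 3 each. The 1 h arrays lay between 0.87 and 1.65 and the 8 h arrays between -0.33 and 0.23. The second probe of the gene gave 0.93 at 1 h and -0.38 at 8 h. The call was lost without repeat 1 (adjusted p = 0.252) and without repeat 2 (adjusted p = 0.0801).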

How the results depend on the processing

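No call of a named probe changed sign under the alternatives run. Of 2576 values of named probes under alternatives, 97 lay on the other side of 0 from the reported value, none of them called in either fit; without repeat 2, bentazon minus water at 8 h was -0.25 and -0.27 on the PR-10 probes in place of 0.83 and 1.14. The members called for bentazon at 4 h minus 2 h were 11 positive, and without repeat 2 they were 3 negative. Counts of members called stayed within 1.5 times, repeats left out aside, for each herbicide against water and for both water comparisons. Bentazon at 4 h minus 2 h gave 11 members, but 4 in the 36-array model, 7 with median-centred arrays, 17 with array weights and 7 on its own 3 arrays. Atrazine at 8 h minus 1 h gave 35, and 19 with scaled arrays. The change of the atrazine effect gave 0, but 5 with array weights, where 1006 of all 17138 probes were called. Over probes with all 24 values it gave 1, where 58 of 13515 were called. The change of the bentazon effect gave 15, but 29 with scaled arrays and 35 with array weights. Counts of this paragraph without a share of all probes are no result about the members. The rule gave 177 probes at 0.5, 39 at 1, 90 with 2 of 3 values, 95 from the 36-array model (78 of them members), 105 with scaled and 82 with median-centred arrays. The causes were not tested.

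With 1 repeat left out, members called ranged from 40 to 56 for bentazon at 1 h, 18 to 40 at 8 h, 10 to 25 and 26 to 35 for atrazine at 2 and 4 h, 0 to 0 and 3 to 12 in water, 0 to 7 within bentazon, 19 to 30 within atrazine, 0 to 0 and 0 to 20 for the changes of the atrazine and bentazon effects, and the rule gave 69 to 118. Fewer arrays enter each such fit, and these ranges are given without the share of all probes.

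Over 72 pairs of arrays with 1 repeat number and no shared RNA, the median correlation was 0.0773 (-0.191 to 0.4, 30 over 0.1). Pairs of unlike number were not compared, so whether repeat numbers pair the arrays was not tested. A replicate block left every count of members called within 1.5 times and added 4 calls of named probes: LOC732582 under bentazon at 8 h (adjusted p = 0.0451), SARK under atrazine at 2 h (0.0142), and the change of the bentazon effect for GSTU30 (0.0266) and Gm14271cDNA18kA (0.0388).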
